A study of Mus musculus with 10 samples.

Results

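The genes described here are 34 immediate early and dissociation response genes, taken by symbol from the 55453 rows of the gene count table and followed through 10 RNA libraries of sorted hippocampal microglia. They were the Fos family genes Fos, Fosb and Fosl2, the Jun family genes Jun, Junb and Jund with Jdp2, Atf3, Egr1 to Egr3, Nr4a1, Nr4a2, Klf2, Klf4, Klf6, Klf10, Srf, Myc, Maff, Csrnp1, Ier2, Ier3, Ier5, Zfp36, Zfp36l1, Btg1, Btg2, Gadd45b, Gadd45g, Ppp1r15a, Rhob, Sik1 and Arc. The mice were female 3xTg AD mice over 15 months of age, which carry mutated human transgenes, APP and MAPT among them, placed, as the study's methods give them, under the neuronal Thy1.2 promoter, so that every group shares the transgenes and no non-transgenic group is part of these libraries. Mice received PBS (5 libraries) or glatiramer acetate (GA, 5 libraries), an immunomodulatory peptide mixture used in multiple sclerosis, at 0.1 mg weekly for about 8 weeks. Hippocampi were homogenized mechanically in a Dounce homogenizer. Myelin was removed with magnetic depletion beads or on a Percoll gradient, and which was used for each library is not stated. CD45int CD11b+ cells were then sorted straight into lysis buffer. The title of each library starts with a prefix of unstated meaning. It is 388 throughout PBS, while GA is split between 394 (libraries 394_1 and 394_2) and 400 (libraries 400_1 to 400_3), so that prefix and treatment cannot be told apart.

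Immediate early genes are switched on within minutes of a stimulus without new protein synthesis, because the factors that drive them are already in place. Mitogen-activated kinases phosphorylate ternary complex factors bound with serum response factor at CArG boxes, and cyclic AMP or calcium signals act through CREB at the cyclic AMP response element (CRE). Many of the products are themselves transcription factors, such as the Fos and Jun proteins that pair into AP-1, and others such as Zfp36 and the Btg proteins shorten the life of mRNA and end the response. In microglia these genes are also known for being induced ex vivo, by tissue dissociation and sorting, so their level in sorted cells can hold a part that arose after the animal's death.

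Promoter windows from RefSeq on GRCm38.p6, each 250 bases before to 50 after a start site, were matched by symbol for 27 of the 34 genes (not Egr1, Egr3, Ier2, Klf10, Arc, Sik1 and Myc). Printed here are stretches around matches to elements known from promoters of immediate early genes. The stretches run 5′ to 3′ on the gene's strand with the element in capitals, and hold 0 bases of annotated GENCODE exon.
Srf, 2 CArG boxes: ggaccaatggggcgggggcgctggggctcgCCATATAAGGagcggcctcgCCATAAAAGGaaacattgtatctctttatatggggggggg
Egr2, CArG box: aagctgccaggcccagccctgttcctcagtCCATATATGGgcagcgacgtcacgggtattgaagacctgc
Btg2, CRE: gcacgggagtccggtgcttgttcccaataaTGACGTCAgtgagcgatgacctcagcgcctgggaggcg
Ppp1r15a, CRE: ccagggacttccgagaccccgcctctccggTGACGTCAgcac
Jun, TGACATCA: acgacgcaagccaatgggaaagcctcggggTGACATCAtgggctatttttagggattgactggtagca
Klf6, TGACATCA: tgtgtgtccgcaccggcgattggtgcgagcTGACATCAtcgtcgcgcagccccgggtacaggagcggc
The stretches lie at chr17:46556185-46556274 (minus strand) for Srf, chr10:67537767-67537836 (plus) for Egr2, chr1:134079284-134079351 (minus) for Btg2, chr7:45526269-45526310 (minus) for Ppp1r15a, chr4:95052230-95052297 (minus) for Jun and chr13:5861340-5861407 (plus) for Klf6. A CArG box on either strand was in the window of 3 of the 27 genes (Egr2, Srf and Zfp36, 11.1%), against 1.81% of all genes with a window. The CRE, spelled TGACGTCA, was in the windows of Maff, Btg2 and Ppp1r15a (11.1% against 2.03%). The AP-1 site, spelled TGACTCA or TGAGTCA, was in that of Csrnp1 alone, which holds 2 copies (3.7% against 5.95%). The variant TGACATCA, known from the Jun promoter and searched on both strands after the other motifs had been seen, was in those of Jun, Klf6 and Maff (11.1% against 4.18%). No site was counted under more than a single motif. A match describes these letters in these windows and is not a measured binding site.

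Depth was even, from 32332185 to 38764643 counts per library, and mitochondrial genes took 0.129% to 0.180% of counts. P2ry12, which marks microglia, was at 5570 to 7350 CPM in every library. CPM are counts per 1000000 counts of the library, scaled by the trimmed mean of M values (TMM). Markers of 10 neutrophil genes summed to 37.9 to 447 CPM in PBS and 10.9 to 169 CPM in GA libraries, with all 10 of them detected. PBS library 388_4 stood apart: it was the highest of the 10 libraries for 20.6% and the lowest for 19.8% of 14481 genes tested, and had the lowest Itgam (the CD11b gene of the sort), at 88.6 CPM. It also had the highest sums of monocyte markers (172 CPM) and of border-associated macrophage markers (629 CPM). The labels do not say that libraries came from separate mice, so p-values measure the spread between these libraries. In bulk RNA, fewer cells of a type and less RNA per cell cannot be told apart.

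Members spanned more than 3 orders of magnitude in level. Per kilobase of annotated exon, the small GTPase gene Rhob was highest at 163 ± 6.63 CPM per kb in PBS (SD, n = 5) and 157 ± 20.8 in GA libraries (SD, n = 5). It was followed by Junb (109 ± 18.9 and 97.2 ± 12.7), Btg2 (88.8 ± 5.32 and 93.6 ± 2.54) and Jun (72.3 ± 15.2 and 80.5 ± 46.6), so that in GA libraries the spread of Jun covered the level of Btg2 and of Junb. Ier5 and Klf6, a growth and stress response gene and a zinc finger factor, were level with each other at means of 52.9 CPM per kb over the 10 libraries. Fos, the best known member, ranked only 24 of 34 at 2.80 ± 1.88 CPM per kb in PBS and 2.20 ± 1.17 in GA libraries (SD, n = 5). The neuronal activity genes were lowest: Fosb had 4 to 32 counts and Arc 0 to 17 counts per library, and these were the only members that did not pass the filter on low counts, leaving 32 tested. Egr3 (6 to 51 counts), Nr4a2 (3 to 37) and Sik1 (6 to 32) passed it with few reads, and their folds rest on those.

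GA was compared with PBS to ask whether weekly treatment changed the microglial transcriptome. In edgeR's quasi-likelihood F-test with Benjamini-Hochberg adjustment, 0 of the 32 members tested and 0 of 14481 genes (0%) passed an adjusted p of 0.05. DESeq2 called 2 genes, neither of them a member. With 5 libraries per treatment and GA split by prefix, these counts do not show that no member changed. At an unadjusted p under 0.05 there were 2 members (6.25%), against 833 genes or 5.75% of all tested, and both were lower in GA (3.17% of all genes were lower and 2.58% higher at that threshold). In none of the 32 did the GA libraries lie wholly above or below the PBS libraries, as they did for 0.891% of all genes. The log2 fold change was above 0 for 12 of the 32 (background 50.1%), and its median was -0.02 against 0.00 over all genes.

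**Figure D1:**
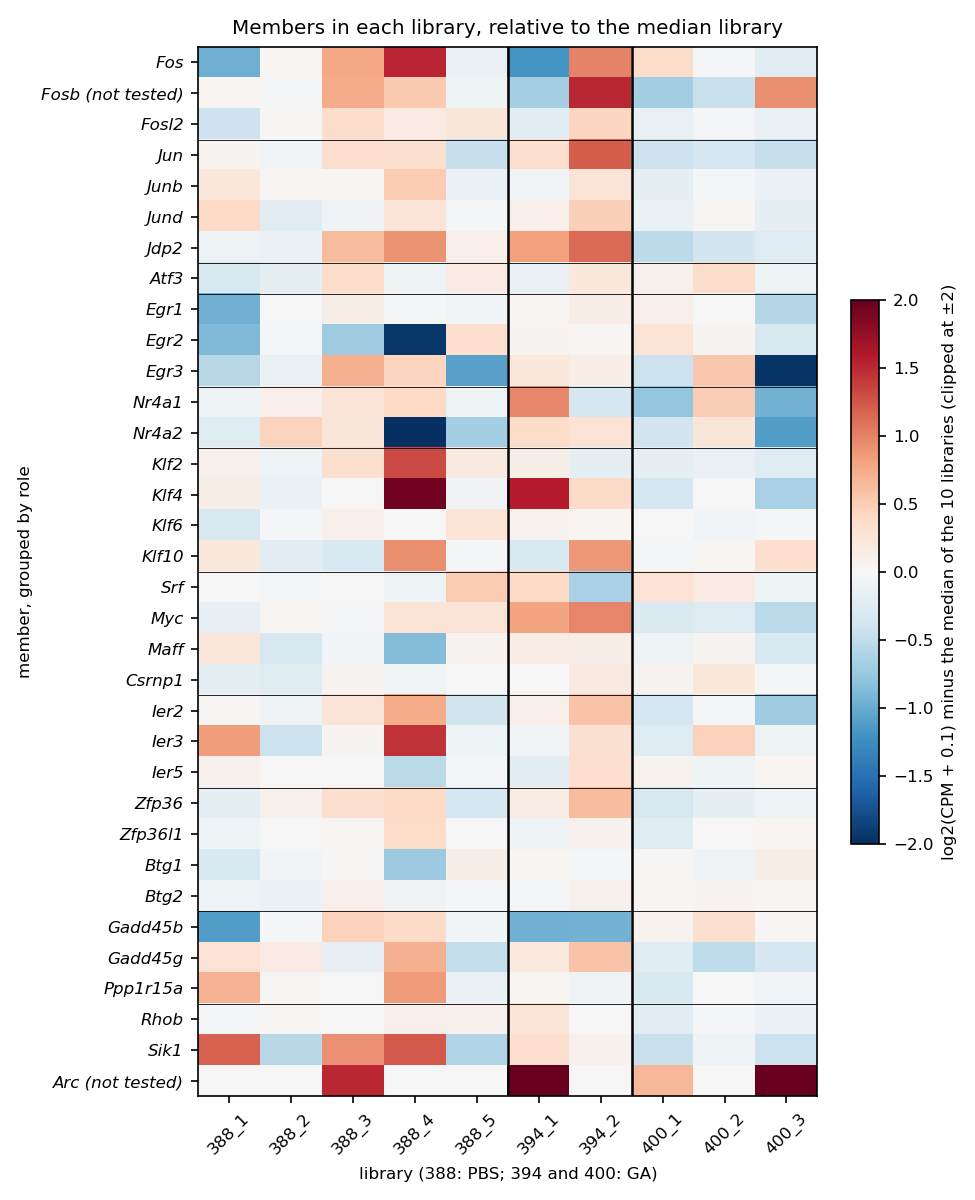
Level of each of the 34 members (rows, grouped by role) in each library (columns), as log2(CPM + 0.1) minus the median of the 10 libraries for that member, with black lines between the prefixes 388 (PBS), 394 (GA) and 400 (GA). PBS library 388_4 and GA library 394_2 are highest for 11 and 9 members, and the libraries 400_1, 400_2 and 400_3 are above the median for 11, 15 and 8 of 34; Fosb and Arc were not tested.

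The 2 members were Klf2 and Ppp1r15a. Klf2, a zinc finger factor that holds myeloid cells quiescent, was at 7.04, 6.18, 8.30, 16.6 and 7.48 CPM in PBS libraries 388_1 to 388_5 and at 7.16, 5.83, 5.83, 6.02 and 5.48 CPM in GA libraries 394_1, 394_2 and 400_1 to 400_3. The groups overlapped through GA library 394_1, and PBS library 388_4 was far above the rest. The log2 fold change was -0.59 ± 0.24 (SE, unadjusted p = 0.0277, adjusted p = 0.854, edgeR), and the exact two-sided permutation test over 252 arrangements gave p = 0.0238, where the smallest possible is 0.00794. Ppp1r15a, which codes for the phosphatase subunit that lifts the translation block of the stress response, was at 45.9, 28.7, 28.2, 50.9 and 26.0 CPM in PBS and 29.2, 27.0, 22.8, 28.4 and 27.2 CPM in GA libraries. Only PBS libraries 388_1 and 388_4 were above all GA libraries. Its log2 fold change was -0.42 ± 0.17 (SE, unadjusted p = 0.0315, adjusted p = 0.854, edgeR; exact permutation p = 0.183). Without PBS library 388_4 the values were -0.26 for both Klf2 and Ppp1r15a, with unadjusted p = 0.109 and 0.111, and 0 of 32 members were left below 0.05. Neutrophil markers moved the same way, 7 of the 8 tested being lower in GA at an unadjusted p under 0.05 and none of the 10 at 0 in all libraries, and their part in these differences was not tested.

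The member with the next smallest p was Sik1, a salt-inducible kinase induced by cyclic AMP. It was at 0.837, 0.179, 0.671, 0.867 and 0.170 CPM in PBS and 0.419, 0.337, 0.202, 0.288 and 0.206 CPM in GA libraries, and the groups overlapped because PBS libraries 388_2 and 388_5 were lowest of all. The log2 fold change was -0.90 ± 0.53 (SE, unadjusted p = 0.108, adjusted p = 0.895, edgeR).

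The AP-1 genes did not differ between treatments beyond their spread. Fos, whose protein pairs with Jun in AP-1, was at 2.33, 4.81, 8.03, 13.6 and 4.19 CPM in PBS and 1.98, 9.34, 6.06, 4.53 and 3.96 CPM in GA libraries. Each treatment thus held both a low and a high library, and the largest value was 6.88 times the smallest. The log2 fold change was -0.35 ± 0.44 (SE, unadjusted p = 0.444, adjusted p = 0.951, edgeR). Junb, whose protein also pairs with Fos, was at 261, 231, 232, 320.5 and 208 CPM in PBS and 218, 273, 198, 221 and 208 CPM in GA libraries, overlapping throughout (-0.16 ± 0.11, SE). Atf3, a stress-induced repressor of inflammatory genes, was at 34.4, 37.5, 53.8, 40.0 and 47.5 CPM in PBS and 38.2, 49.1, 44.8, 53.9 and 39.5 CPM in GA libraries (0.08 ± 0.13, SE). For both genes the ranges of the treatments overlapped over most of their length. The other AP-1 genes Fosl2 and Jund had log2 fold changes of -0.10 and -0.01.

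Among the EGR and nuclear receptor genes no test passed. Egr1, a zinc finger factor that reports kinase signalling, was at 22.6, 43.8, 47.7, 42.8 and 42.5 CPM in PBS and 45.3, 48.7, 47.2, 44.5 and 29.7 CPM in GA libraries. Libraries 388_1 and 400_3, of different treatments, were low and the other 8 lay close together (0.11 ± 0.18, SE, adjusted p = 0.959, edgeR). Nr4a1, an orphan receptor that restrains inflammatory genes in myeloid cells, was at 4.97, 5.73, 6.38, 7.03 and 4.96 CPM in PBS and 10.5, 4.21, 3.09, 7.54 and 2.73 CPM in GA libraries. The PBS libraries sat inside the range of the GA libraries, and the coefficient of variation was 15.5% in PBS and 59.2% in GA libraries. Egr2 ranged from 3.75 CPM in 388_4 to 18.6 CPM in 388_5 and had the largest positive fold change of the members tested, at 0.49 ± 0.30 (SE, unadjusted p = 0.133, edgeR).

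Btg2 and Klf6 varied little between libraries. Btg2, an antiproliferative factor that recruits the deadenylase complex, was at 235, 232, 268, 238 and 244 CPM in PBS and 247, 266, 258, 259 and 254 CPM in GA libraries. It had the smallest spread of all members, an SD of 0.0656 in log2 CPM within treatments, and the groups overlapped (0.08 ± 0.06, SE, unadjusted p = 0.214, edgeR). Klf6 was at 184, 226, 246, 233 and 279 CPM in PBS and 243, 237, 228, 220.5 and 227 CPM in GA libraries, with the PBS libraries on both sides of a narrow GA group (-0.01 ± 0.09, SE). Over the 32 members tested the median SD within treatments was 0.388, against 0.219 over all genes, and 26 of the 32 were above that. The most variable tested member was Fos, at 0.88.

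The remaining members also had overlapping treatments. The decay factor gene Zfp36l1 ranged over the 10 libraries from 29.3 to 44.9 CPM, the growth arrest gene Btg1 from 114 to 205, Ier5 from 121 to 222 and Ier3, an apoptosis regulator, from 5.08 to 19.0. Among transcription factors Klf10 ranged from 18.1 to 42.7 CPM, Srf from 8.27 to 18.4, Csrnp1 from 10.9 to 14.98 and the small Maf gene Maff from 0.805 to 1.83. Their log2 fold changes of GA against PBS lay between -0.44 (Ier3, unadjusted p = 0.173, edgeR) and 0.17 (Btg1, unadjusted p = 0.182, edgeR), and those of the sparsely counted Egr3 and Nr4a2 were -0.12 and 0.24. The members taken up below by prefix had folds of GA against PBS of 0.18 (Myc), 0.15 (Jun), -0.01 (Jdp2), -0.0012 (Zfp36), -0.17 (Gadd45g), -0.05 (Rhob), -0.18 (Ier2), -0.22 (Klf4) and -0.23 (Gadd45b), all within their SE, and each of these turned direction with the GA libraries of a single prefix.

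**Figure D2:**
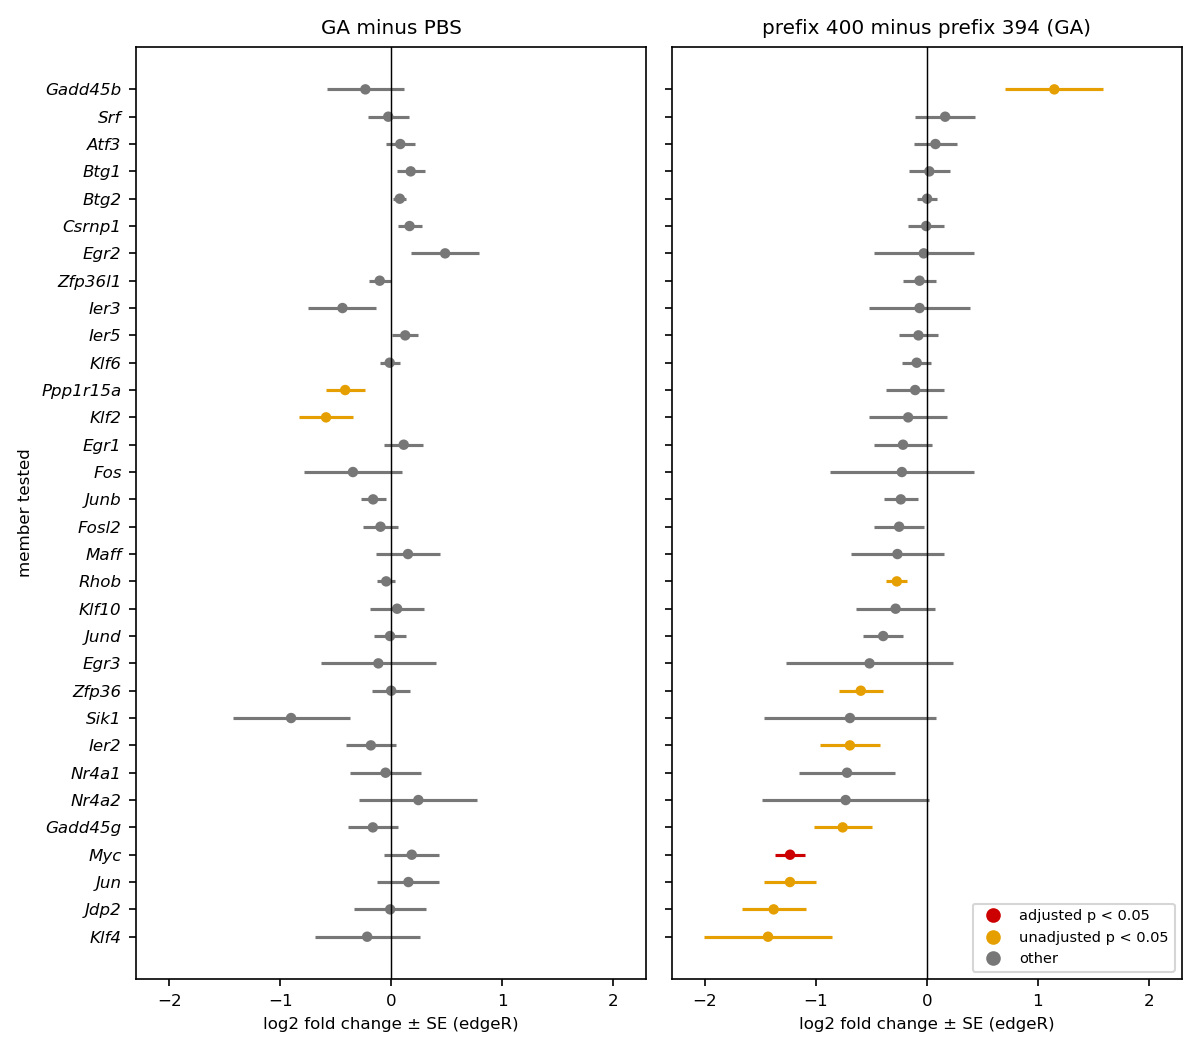
Log2 fold change with its SE from edgeR for the 32 members tested, GA against PBS on the left and the GA libraries of prefix 400 against those of prefix 394 on the right, in the order of the right panel. On the left 2 members have an unadjusted p under 0.05, and on the right 9 do, with Myc the only member at an adjusted p under 0.05; 27 of 32 points on the right are below 0.

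Within GA, the libraries of the prefixes 400 and 394 were compared, since they share treatment. Myc, the growth and metabolism factor, was lower in the 400 libraries, and the AP-1 genes Jun and Jdp2 had folds as large without passing the adjusted threshold. Of 14481 genes 2 passed an adjusted p of 0.05 (0.0138%), Myc and Fkbp5, the steroid receptor co-chaperone, which is no member and had a log2 fold change of -1.66 (adjusted p = 0.0293, edgeR). Members at an unadjusted p under 0.05 were 9 of 32 (28.1%), against 5.48% of all genes, of which 8 were lower in 400 (25%, background 3.20%) and 1 was higher (3.12%, background 2.27%). The libraries of both prefixes did not overlap for 14 of 32 members (background 27.7%), with the 400 libraries below for 13 (background 13.5%) and above for 1 (background 14.2%). The median log2 fold change was -0.24 over the members and 0.01 over all genes, and 27 of 32 were below 0 (background 48.6%). Markers of other cells had the following values by prefix, none with an adjusted p under 0.05: all 8 neutrophil genes tested had folds below 0 (median -1.22, 0 at an unadjusted p under 0.05), the sum of the list being 42.2 and 169 CPM in the 394 libraries and 10.9, 18.6 and 106 CPM in the 400 libraries. Of 8 border-associated macrophage genes 7 had folds above 0 (median 0.77, 1 at an unadjusted p under 0.05). The sums of the list were 396 and 571 CPM against 466, 595 and 478 CPM, and most of each sum was Stab1. Stab1 was the 1 gene of the list with a fold below 0 (-0.04), at 358 and 510 CPM against 397, 460 and 412 CPM. Mrc1, the next highest, was at 18.1 and 30.8 CPM against 35.4, 69.25 and 35.1 CPM (0.93). All 4 endothelial and mural genes tested had folds above 0 (median 0.31, with Pecam1 at an unadjusted p of 0.0173, edgeR). Of 5 astrocyte genes 3 had folds above and 2 below 0 (median 0.27), Slc1a3 being lower (-0.38, unadjusted p = 0.00215, edgeR). The part of these cells in the members' differences was not tested.

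Myc was at 146 and 166 CPM in GA libraries 394_1 and 394_2 and at 69.7, 71.1 and 58.5 CPM in 400_1, 400_2 and 400_3. The PBS libraries had 75.6, 87.0, 82.7, 103 and 102 CPM. Both 394 libraries were thus above every PBS library and every 400 library was below every PBS library, so that the GA mean of 102 ± 49.9 CPM (SD, n = 5) lay near the PBS mean of 90.0 ± 11.9 (SD, n = 5). The log2 fold change of 400 against 394 was -1.23 ± 0.14 (SE, adjusted p = 0.00845, edgeR), the smallest p of all 14481 genes. Without 394_1 the adjusted p was 0.0626 and without 394_2 it was 0.0887, with the remaining 394 library taken to vary like the other groups. Set against PBS alone, Myc had log2 fold changes of 0.80 ± 0.13 in the 394 libraries (SE, adjusted p = 0.888, edgeR) and -0.43 ± 0.12 in the 400 libraries (SE, adjusted p = 0.471, edgeR), 2 comparisons that share their PBS libraries.

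**Figure D3:**
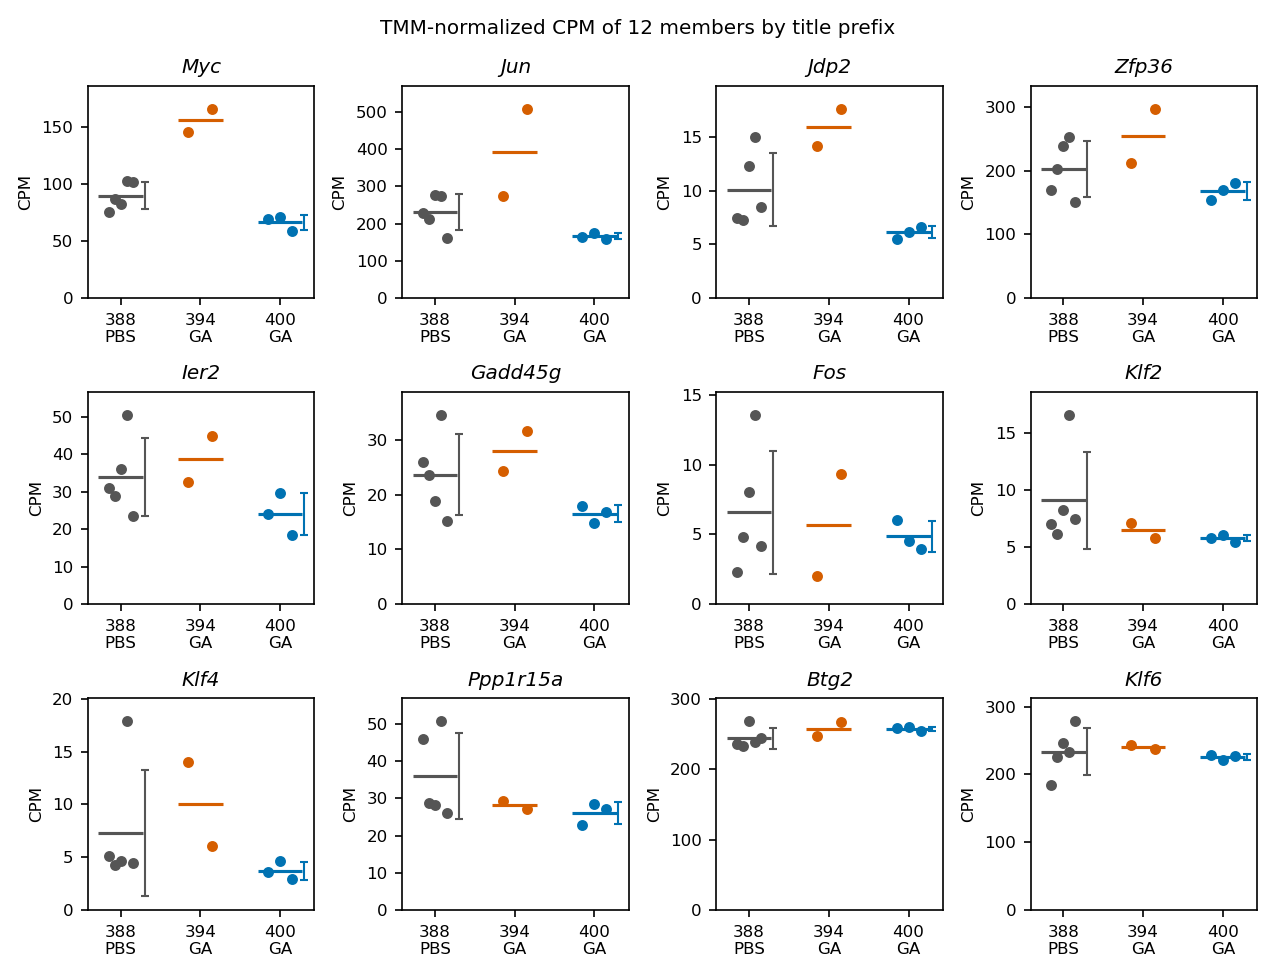
TMM-scaled CPM per library (points) for 12 members by title prefix, 388 (PBS, n = 5), 394 (GA, n = 2) and 400 (GA, n = 3), with the mean as a line and the SD as a bar for groups of more than 2 libraries; every axis starts at 0. The 394 points of Myc, at 146 and 166 CPM, lie above all others, and the point of 388_4 is far above the rest for Klf2, and those of 388_4 and 394_1 for Klf4.

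Jun and Jdp2, an AP-1 member and a partner that represses it, had folds as large as that of Myc. Jun was at 275 and 508 CPM in the 394 libraries, 165, 175 and 159 CPM in the 400 libraries and 228, 213, 277, 275 and 160 CPM in PBS. The 400 libraries were level with the lowest PBS library, and 394_2 alone was above the PBS range. The log2 fold change was -1.23 ± 0.23 (SE, unadjusted p = 1.36e-04, adjusted p = 0.152, edgeR), and -0.73 without 394_2 (adjusted p = 0.951). DESeq2 called Myc, Jun (adjusted p = 2.85e-04) and Jdp2. Jdp2 was at 14.2 and 17.7 CPM in the 394 libraries, 5.54, 6.16 and 6.66 CPM in the 400 libraries and 7.45, 7.26, 12.4, 15.0 and 8.53 CPM in PBS. Every 400 library was below every PBS library (-1.38 ± 0.29, SE, unadjusted p = 3.38e-04, adjusted p = 0.245, edgeR). In all, 8 of the 34 members share annotated exon bases with a gene on the opposite strand. Such genes share 232 of the 3189 exon bases of Jun (Junos) and 165 of the 2148 of Jdp2 (Gm47863). The libraries were made with the SMARTer Ultra Low Input and Nextera XT kits, which the study's methods do not describe as keeping the strand. Whether counting used the strand is not given in the sources used here, so reads over the shared bases may stem from either gene.

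The other members that were lower in 400 at an unadjusted p under 0.05 were Zfp36, Gadd45g, Rhob, Ier2 and Klf4, none with an adjusted p under 0.625. Zfp36, which codes for tristetraprolin and directs decay of Tnf mRNA, was at 211 and 297 CPM in the 394 libraries, 154, 170 and 181 CPM in the 400 libraries and 169, 202, 239, 253 and 151 CPM in PBS. Its 400 libraries lay inside the PBS range (-0.60 ± 0.20, SE, unadjusted p = 0.00989, edgeR), and the fold was -0.33 without 394_2 (unadjusted p = 0.187). Gadd45g, a growth arrest and stress sensor, was at 24.4 and 31.6 CPM, at 17.9, 14.9 and 16.8 CPM, and at 26.0, 23.7, 18.9, 34.7 and 15.2 CPM in the same order. All but 400_2 lay within the PBS range (-0.76 ± 0.26, SE, unadjusted p = 0.0124, edgeR). Rhob was at 448 and 377 CPM, at 317, 362 and 345 CPM, and at 366, 377, 369, 402 and 394 CPM in the same order, all 400 libraries being below all PBS libraries (-0.27 ± 0.10, SE, unadjusted p = 0.0137, edgeR). Without 394_1 the fold of Rhob was -0.14 (unadjusted p = 0.237), and without 394_2 that of Gadd45g was -0.56 (unadjusted p = 0.119, edgeR).

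Ier2, a nuclear protein gene of the first response wave, was at 32.5 and 44.96 CPM in the 394 libraries, 24.0, 29.6 and 18.3 CPM in the 400 libraries and 30.9, 28.7, 36.0, 50.5 and 23.5 CPM in PBS. PBS library 388_4 was again the highest (-0.69 ± 0.27, SE, unadjusted p = 0.0249, edgeR), and the fold was -0.44 without 394_2 (unadjusted p = 0.224). Klf4, a zinc finger factor of monocyte and endothelial programmes, was at 14.1 and 6.09 CPM, at 3.61, 4.64 and 2.93 CPM, and at 5.07, 4.30, 4.67, 17.9 and 4.42 CPM in the same order. Single libraries, 394_1 in GA and 388_4 in PBS, were far above the rest (-1.43 ± 0.58, SE, unadjusted p = 0.0268, edgeR), and the fold was -0.71 without 394_1 (unadjusted p = 0.333). Gadd45b was the only member higher in 400 at an unadjusted p under 0.05. It was at 1.35 and 1.37 CPM in the 394 libraries, 2.86, 3.43 and 2.78 CPM in the 400 libraries and 1.203, 2.69, 3.78, 3.59 and 2.63 CPM in PBS. PBS library 388_1 was as low as the 394 libraries (1.15 ± 0.44, SE, unadjusted p = 0.0216, edgeR).

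The mean of log2(CPM + 0.1) over all 34 members, given without a test, was 3.89, 3.90, 4.18, 4.23 and 3.88 in PBS libraries 388_1 to 388_5, 4.13 and 4.26 in the 394 libraries and 3.82, 3.97 and 3.78 in the 400 libraries. The difference of GA from PBS was -0.03, smaller than the SD of 0.172 among PBS libraries, and the difference of 400 from 394 was -0.33. By role, again without a test and over 1 to 4 genes each, the difference of 400 from 394 was -0.79 for the Jun family with Jdp2, -0.74 for the nuclear receptors, -0.44 for the KLF genes, -0.36 for the EGR genes, -0.32 for the signalling and synaptic genes, -0.31 for the other transcription factors, -0.28 for the IER genes, -0.19 for the Fos family, -0.16 for the decay and growth arrest genes and 0.08 for both Atf3 and the stress genes. The value of the stress genes averages the opposite folds of Gadd45b (1.15) and Gadd45g (-0.76), and that of the nuclear receptors rests on Nr4a1, whose prefixes overlap, and on the sparsely counted Nr4a2. Most of the KLF value came from Klf4 (edgeR fold -1.43, the others -0.28 to -0.09). Likewise, most of the EGR value came from the sparsely counted Egr3, and that of the other transcription factors from Myc. The Fos family value includes the untested Fosb, and that of the signalling and synaptic genes the untested Arc and the sparsely counted Sik1.

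**Figure D4:**
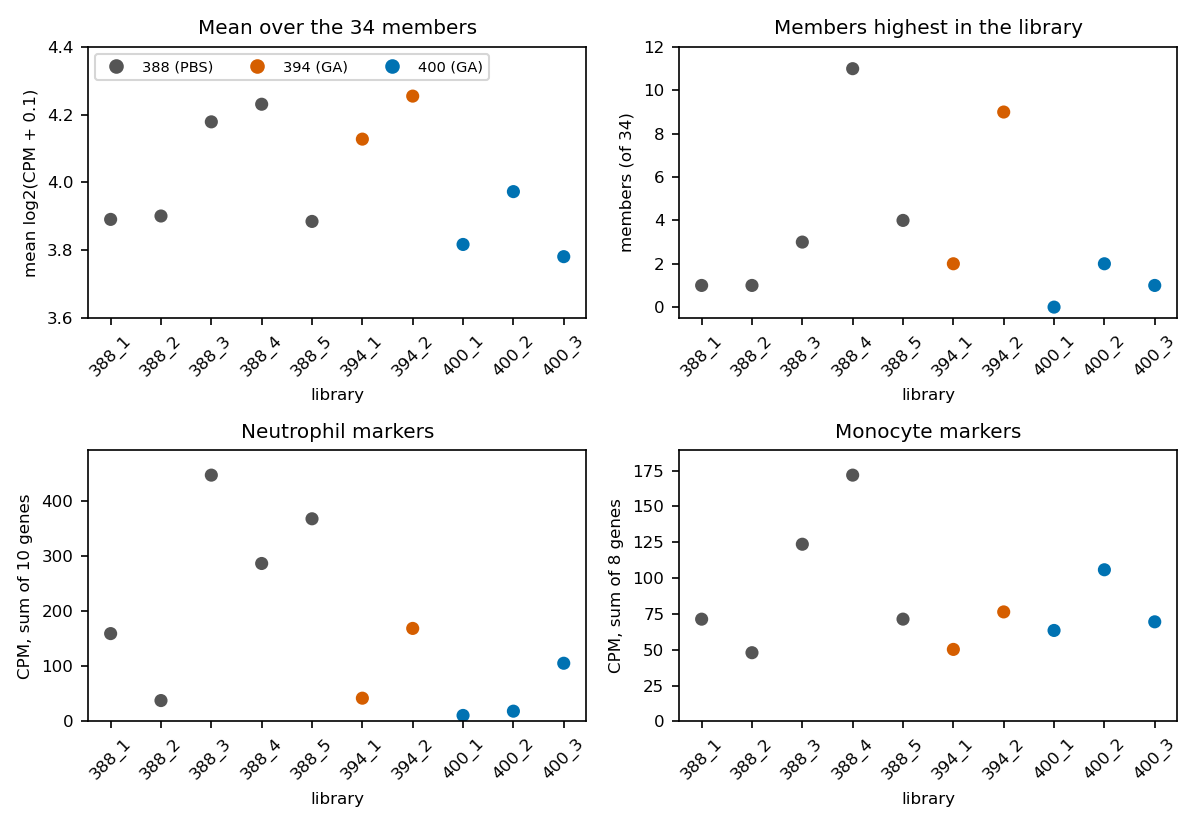
Per library, the mean log2(CPM + 0.1) over the 34 members, the number of members that are highest in that library, and the summed CPM of neutrophil and monocyte markers, coloured by title prefix. The member mean is highest in 388_4 and 394_2 and lowest in 400_3, and the neutrophil sum is highest in 388_3, at 447 CPM.

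Members did not move as a single block across libraries. PBS library 388_4 was the highest of all 10 for 11 of the 34 members, against 20.6% of all genes tested, and the lowest for 5, against 19.8%. It was highest for Fos, Junb, Klf2, Klf4, Klf10, Ier2, Ier3, Zfp36l1, Gadd45g, Ppp1r15a and Sik1, at 3.00 times the median of the other libraries for Fos, 3.87 times for Klf4 and 2.85 times for Ier3. It was lowest for Egr2 (0.249 times), Nr4a2 (0.0985 times), Maff, Ier5 and Btg1. GA library 394_2 was highest for 9 members, against 9.80% of all genes, namely Fosb, Fosl2, Jun, Jund, Jdp2, Egr1, Myc, Ier5 and Zfp36. GA library 394_1 was second to it in Myc but had the lowest Fos of all, at 1.98 CPM.

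Relations of Fos with each of the other 33 members were computed over the 10 libraries on log2(CPM + 0.1), with permutation tests of 100000 resamples. None of the 33 had an adjusted p under 0.05 by Pearson's r or by Spearman's rho, and 1 had an unadjusted p under 0.05 by r. That was Fosl2, with r = 0.74 (permutation p = 0.0157, adjusted p = 0.405) and rho = 0.72 (permutation p = 0.0238, adjusted p = 0.533). The sign was positive for 24 of the 33, with r from -0.61 to 0.74. With the mean of each prefix removed, r was 0.80 for Zfp36, 0.79 for Fosl2, 0.77 for Jdp2 and 0.75 for Jun, all with adjusted permutation p = 0.0992. Without the libraries farthest from the median of Fos, 388_4 and 394_1, only Egr1 had an adjusted p under 0.05 (r = 0.85, permutation, adjusted p = 0.00627). No prefix holds 6 libraries, the number below which no correlation within a prefix was computed.

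Genes on either side of the response were taken from 4 lists, and none of them passed an adjusted p of 0.05 in either comparison. The counts at an unadjusted p under 0.05 stand beside 3.17% of all genes lower and 2.58% higher in GA. Of 27 upstream kinases and factors, all tested, 3 were lower and 1 higher in GA at an unadjusted p under 0.05: Mapk8, which codes for the kinase JNK1 that phosphorylates Jun (-0.63 ± 0.15, SE, adjusted p = 0.847, edgeR), Mapk3 (-0.16) and Elk3 (-0.28), against the ternary complex factor Elk1 (0.38). Of 12 further AP-1 and partner factors, 11 were tested, and Atf2 (0.23) and Batf2 (0.63) were higher in GA. Of 21 feedback inhibitors 18 were tested, 0 of them at an unadjusted p under 0.05 in GA against PBS. Of 24 other dissociation response genes, mainly heat shock and cytokine genes, 22 were tested, and Hsph1 (-0.25) was lower in GA.

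Between the prefixes, 4 of the 18 feedback inhibitors tested were lower in 400 at an unadjusted p under 0.05 and 0 were higher, where 3.20% of all genes were lower and 2.27% higher. Dusp6, the phosphatase that switches off ERK, was at 1046 and 1123 CPM in the 394 libraries, 772, 786 and 740 CPM in the 400 libraries and 924 to 1042 CPM in PBS. As with Myc, both 394 libraries were above and all 400 libraries below the PBS range (-0.50 ± 0.08, SE, adjusted p = 0.128, edgeR). The others were Spry1 (-0.80), Socs3 (-0.63) and Trib1 (-0.57). Among the AP-1 partners, Batf (-0.62) and Mafg (-0.25) were lower in 400, and of the upstream kinases Map2k4 (-0.28). Of the other dissociation response genes, Cebpb (-0.59) was lower and Irf1 (0.40) higher in 400, while Hspa1a (-2.16), also lower, had only 2 to 55 counts per library and was at 1.54 CPM in 394_2 against 0.389 CPM in 394_1.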

How the data were processed

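Per the submitters' processing notes, the authors used bcl2fastq 2.19.0, fastp 0.20.0, STAR 2.7.0f and featureCounts of Subread 1.6.4 on GRCm38.p6, and deposited raw counts per gene symbol. The gene annotation and strand setting are not given in the sources used here. The counts were scaled with TMM after filterByExpr (minimum count 10), which kept 14481 of 55453 genes, and tested with edgeR 4.0.16 (quasi-likelihood F-test, R 4.3.3), with Benjamini-Hochberg adjustment over all genes tested and a threshold of 0.05. One fit compared GA with PBS. Another had a mean per title prefix and gave 400 against 394. DESeq2 1.42.0 and limma 3.58.1 (voom) were alternatives. CPM used TMM library sizes, and log2 values a pseudocount of 0.1. SE is the size of the log2 fold change over the square root of F. Libraries differed by more than sampling noise in all 45 pairs (chi-square per degree of freedom 14.03 or more). Correlations were run in Python 3.11.15. The tests were checked on simulated data. Of the 55453 symbols 54586 matched GENCODE, which gave exon lengths. Members, gene lists and tests were chosen with earlier results of these data known. Values in every library are given for a set list of 12 members, each member with an unadjusted p under 0.05 in either comparison and the 3 with the smallest p in each, and for Dusp6, picked after its values were seen. Some items are not reported here. Alternatives were other tools, scalings and filters, each library left out, either GA prefix alone, and title numbers as a block.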

Additional observations from a re-analysis of the deposited data

Results flagged for a closer look

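In 70 groups checked (each of the 34 members, and the mean over them, within each treatment), 7 had a library whose gap to the nearest other, as a share of the group's range of log2 CPM, was beyond Dixon's critical value, and chance gives about 3.5 in 70. PBS library 388_4 gave 3 of them: it was highest of PBS for Klf4 (0.885) and Zfp36l1 (0.761) and lowest for Ier5 (0.784). Egr1 was lowest in PBS library 388_1 (0.845) and in GA library 400_3 (0.818). Srf, the factor that binds CArG boxes, was highest in PBS library 388_5 (0.817). Arc, which had reads in only 1 PBS library, was highest in 388_3 (a share of 1).

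Myc differed between the GA libraries of prefixes 400 and 394 by edgeR's test of that difference (adjusted p = 0.00845). What sets the prefixes apart is not stated.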

How the results depend on the processing

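GA against PBS: DESeq2 called 2 genes, or 3 without independent filtering and the Cook cutoff, and 0 to 1 genes were called with a library left out; 0 members were called under every alternative. Genes at an unadjusted p under 0.05 numbered 1901 with no filter on low counts, 1252 in DESeq2 without its filters, 503 with prefix 394 alone and 595 to 1137 with a library left out. Members at that threshold were 1 with limma-voom (0 lower), 4 with prefix 394 alone (1 lower), 6 with prefix 400 alone (6 lower), and 0 to 4 with a library left out (0 to 3 lower). Title numbers did not pair the libraries (correlations of deviations -0.12 to 0.05 in 5 pairs), and with the replicate block 1 member was lower. Folds kept their direction in 372 of 417 values for 19 members. Those that turned with prefix 394 alone were Ier2 0.20, Nr4a1 0.35, Klf6 0.0463, Zfp36 0.33, Rhob 0.12, Jdp2 0.66, Klf4 0.48 and Gadd45g 0.25; with prefix 400 alone Jun -0.46, Myc -0.43 and Gadd45b 0.13; with the block Fos 0.18, Jun -0.0038, Klf6 0.10, Zfp36 0.0037, Jdp2 0.16, Klf4 0.23 and Gadd45b 0.0764. Zfp36 was 0.0083 with no filter and 0.0284 with a mean per prefix. With a library left out, the ranges that crossed 0 were Fos -0.67 to 0.10, Jun -0.25 to 0.29, Egr1 -0.0367 to 0.22, Ier2 -0.38 to 0.0038, Nr4a1 -0.40 to 0.12, Klf6 -0.0883 to 0.0625, Zfp36 -0.18 to 0.0907, Rhob -0.12 to 0.0099, Jdp2 -0.31 to 0.18, Klf4 -0.75 to 0.44, Myc -0.0605 to 0.33 and Gadd45g -0.36 to 0.0108.

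Prefix 400 against 394: genes called were 64 in DESeq2, 49 without its filters, 81 with no filter, 4 with library totals, 7 without PBS library 388_4 (added after the data were seen) and 0 to 3 with a library left out. Genes at an unadjusted p under 0.05 were 1450 with no filter and 1528 with GA libraries alone. Members called were 3 in both DESeq2 fits, 4 with no filter, and 0 to 1 with a library left out (0 without 394_1 or without 394_2). Fos was 0.11 in limma-voom and -0.95 to 1.29 with a library left out, Btg2 -0.015 with library totals, -0.0016 with at least 10 counts in every library and -0.0499 to 0.057 with a library left out, Atf3 -0.0901 to 0.27 and Nr4a1 -1.34 to 0.0832. Likewise Klf4 was -1.91 to -0.71, Zfp36 -0.82 to -0.33, Rhob -0.39 to -0.14, Ier2 -0.91 to -0.44, Gadd45g -0.93 to -0.56 and Jun -1.61 to -0.73. With 388_4 and 394_1 left out, 1 relation with Fos was called. The causes were not tested. Depth limits Fosb, Arc, Egr3, Nr4a2 and Sik1.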
